A study of Mus musculus with 12 samples.

Results

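The hepatocyte moves bile acids and other organic anions with carriers on the membrane facing the blood and with pumps on the membrane facing the bile canaliculus. The transcripts of 10 such transporters were followed in mouse liver, out of 18193 genes with a probe set of a single gene symbol. They are the uptake carriers Slc10a1, Slco1a1, Slco1a4, Slco1b2 and Slco2b1, the canalicular efflux pumps Abcb11, Abcb4 and Abcc2, and the basolateral efflux pumps Abcc3 and Abcc4. They were matched by the gene symbol of the array annotation, and the probe set of each gene with the highest mean of the 12 arrays was used. All 10 were measured. The study asked what the long noncoding RNA lnc-LFAR1 does in fibrosis brought on by carbon tetrachloride (CCl4), a solvent that injures hepatocytes. Male Balb/c mice aged 8 weeks were injected into the peritoneum 3 times a week for 6 weeks, with olive oil that held 5% CCl4 (0.3 ml/kg) or with plain olive oil. All of them also received a lentivirus through the tail vein after 2 weeks, followed by 4 more weeks of injections. The NC group had oil and the control virus Lenti-NC, NC+CCl4 had CCl4 and Lenti-NC, shLFAR1 had oil and Lenti-shLFAR1, and shLFAR1+CCl4 had CCl4 and Lenti-shLFAR1, with 3 arrays in each. Lenti-shLFAR1 carries a short hairpin RNA against lnc-LFAR1. No source used here gives a cell type to which the virus was limited, and lnc-LFAR1 itself was not analysed here.

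Bile acids are made from cholesterol in the hepatocyte, pumped into bile, taken up again in the gut and returned to the liver by the portal vein. Slc10a1 (NTCP) takes conjugated bile acids back up from the blood together with sodium. The Slco proteins (OATPs) take up bile acids, steroid conjugates, bilirubin and many drugs without sodium. Abcb11 (BSEP) pumps bile salts into the canaliculus, Abcb4 (MDR2) brings phosphatidylcholine into bile, and Abcc2 (MRP2) exports conjugated bilirubin and glutathione conjugates. Abcc3 and Abcc4 (MRP3 and MRP4) lie on the side facing the blood and are known as the route by which bile acids and conjugates leave a hepatocyte when the canalicular route is blocked.

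Liver is the labelled tissue, and 16 measured hepatocyte markers, such as albumin and transthyretin, had mean log2 values from 12.71 to 13.05 on every array. Over all genes, 56.3% of the variance lay on the first principal component. The 6 oil arrays lay between -26.7 and -20.4 on it and the NC+CCl4 arrays between 34.8 and 48.8. Of the shLFAR1+CCl4 arrays, replicates 1 and 2 lay at -6.8 and -9.66 and replicate 3 at 39.2, so replicate 3 stood apart from its group. NC+CCl4 replicate 1 differed in its 3′ minus 5′ log2 difference for Gapdh, 0.72 against -0.21 to 0.03 on the other arrays. Results that rest on either array are given with and without it. The mean of 8 stellate cell markers was 6.99 to 7.15 in NC, 8.76 to 8.96 in NC+CCl4, 6.89 to 7.41 in shLFAR1, and 7.55, 7.57 and 8.61 in shLFAR1+CCl4. That of 8 macrophage markers was 7.09 to 7.41 in NC, 8.31 to 9.06 in NC+CCl4, 7.10 to 7.33 in shLFAR1, and 7.86, 7.72 and 8.70 in shLFAR1+CCl4. In bulk liver fewer cells of a type and less RNA per cell cannot be told apart.

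The 4 transporters that changed under CCl4 were Slco1a1, Slc10a1, Slco1b2 and Abcc4, and the 250 bases before their transcription starts are shown here because CCl4 lowered 3 of these transcripts and raised the other. The sequences are from RefSeq, build GRCm38.p6, 5′ to 3′ on the strand of the gene, and capitals mark every match on either strand to 5 short motifs. These were AGGTCA, a core bound by many nuclear receptors (in 14.0% of 32851 promoters), GTTAAT, a core bound by HNF1 (6.43%), TTCNNNGAA, the site of STAT factors (7.02%), TGACNNNGC, the core of the antioxidant response element (10.2%), and TTGCNNAA, the core of the C/EBP site (9.56%).
Slco1a1, chr6:141946963-141947212, minus strand: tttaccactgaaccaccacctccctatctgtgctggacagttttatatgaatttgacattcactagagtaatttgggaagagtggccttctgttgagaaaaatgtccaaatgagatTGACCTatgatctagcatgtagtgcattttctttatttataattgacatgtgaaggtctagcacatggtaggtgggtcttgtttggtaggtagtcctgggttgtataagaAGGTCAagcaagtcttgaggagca
Slc10a1, chr12:80968706-80968955, minus strand: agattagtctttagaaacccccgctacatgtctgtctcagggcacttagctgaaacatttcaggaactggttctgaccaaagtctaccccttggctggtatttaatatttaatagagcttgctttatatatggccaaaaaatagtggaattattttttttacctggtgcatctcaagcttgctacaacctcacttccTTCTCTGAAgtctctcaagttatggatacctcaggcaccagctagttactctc
Slco1b2, chr6:141629268-141629517, plus strand: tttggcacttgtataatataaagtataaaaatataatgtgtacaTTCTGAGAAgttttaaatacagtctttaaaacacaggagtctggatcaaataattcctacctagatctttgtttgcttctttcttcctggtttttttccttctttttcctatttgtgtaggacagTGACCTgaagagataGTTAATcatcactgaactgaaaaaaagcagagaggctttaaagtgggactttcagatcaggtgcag
Abcc4, chr14:118706220-118706469, minus strand: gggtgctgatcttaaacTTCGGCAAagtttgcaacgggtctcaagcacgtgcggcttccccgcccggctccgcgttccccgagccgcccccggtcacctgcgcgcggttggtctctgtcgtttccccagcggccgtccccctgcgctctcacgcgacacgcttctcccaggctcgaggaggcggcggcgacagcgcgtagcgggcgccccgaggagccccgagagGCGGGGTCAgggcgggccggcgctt
The Slco1a1 window held AGGTCA 134 and 24 bases before the start, on opposite strands. The Slco1b2 window held AGGTCA at 81, GTTAAT at 66 and the STAT motif at 206 bases, and the Slc10a1 window held the STAT motif at 53 bases. The Abcc4 window held the antioxidant core at 25 bases and the C/EBP core at 233 bases. Slc10a1 and Abcc4 each have a further start in the table, and there the Slc10a1 window held AGGTCA at 87 and the C/EBP core at 75 bases, while that of Abcc4 held the antioxidant core at 23 bases. Among the members that were not called, Abcb11 held AGGTCA at 56 bases, Abcc2 held it at 49 and the antioxidant core at 98 bases, and 1 of the Slco2b1 windows held the STAT motif at 133 bases. Those of Slco1a4 and Abcb4 held none of the 5. Promoters were at hand for 9 members, and Abcc3 was not matched. A match is a run of letters, and binding was not measured.

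The first comparison, NC+CCl4 against NC, asked what CCl4 did to each transporter under the control virus. The liver lost transcripts of uptake carriers and gained 1 of a basolateral pump, and no canalicular pump passed the test. Slco1a1 fell 71.8-fold, Slco1b2 1.64-fold and Slc10a1 1.42-fold, while Abcc4 rose 3.68-fold. Thus 3 of 5 uptake carriers were called lower (adjusted p under 0.05, limma over all genes) and 1 of 5 efflux pumps higher. Over all genes 5.41% were called lower and 7.66% higher. The arrays of both groups did not overlap for the same 4 transporters, 3 lower and 1 higher, against 15.8% and 13.8% of all genes. By the methods' t-test, a plain test of each gene on both groups alone, Slco1a1 was the 1 member called after Benjamini-Hochberg adjustment, and adjusted p was 0.0831 for Slc10a1, 0.138 for Slco1b2 and 0.104 for Abcc4.

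Slco1a1, an OATP of the sinusoidal membrane and in mice mainly a male transcript, had log2 values of 11.07, 11.34 and 11.44 in NC and of 5.09, 5.41 and 4.85 in NC+CCl4. The highest CCl4 array thus lay far below the lowest oil array. The log2 difference was -6.17 ± 1.01 (SE, n = 3 arrays per group, adjusted p = 0.00274, limma). Its SE was set largely by shLFAR1+CCl4, where the SD was 3.05, against 0.19 in NC, 0.28 in NC+CCl4 and 0.04 in shLFAR1. The values come without detection calls, and those of NC+CCl4 lay below the median gene mean of 5.59, so the fold may be too small.

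Slc10a1, the sodium-dependent bile acid carrier, stood at 12.14, 12.12 and 12.30 in NC and at 11.60, 11.66 and 11.78 in NC+CCl4. Every CCl4 array lay below every oil array. The log2 difference was -0.51 ± 0.09 (adjusted p = 0.00364, limma). Slco1b2, the main hepatic OATP for bilirubin and many drugs in mice, was at 12.44, 12.32 and 12.33 in NC and at 11.78, 11.83 and 11.34 in NC+CCl4. Here too the groups did not overlap, and the log2 difference was -0.71 ± 0.12 (adjusted p = 0.0035, limma).

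Both remaining uptake carriers overlapped between the groups. Slco1a4, an OATP inducible through the receptor PXR, gave 8.68, 7.95 and 8.97 in NC and 8.14, 7.23 and 8.78 in NC+CCl4, a difference of -0.48 ± 0.39 (adjusted p = 0.463, limma). Its arrays spread widely within each group, by 1.02 log2 units in NC and 1.55 in NC+CCl4. Slco2b1, an OATP also found in many other tissues, gave 9.93, 9.98 and 9.79 in NC and 10.20, 9.45 and 9.76 in NC+CCl4, a difference of -0.09 ± 0.16 (adjusted p = 0.748, limma).

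The canalicular pumps lay on both sides of their oil values. Abcb11, the bile salt pump, had 11.63, 11.50 and 11.34 in NC and 11.65, 11.46 and 11.19 in NC+CCl4, a log2 difference of -0.05 with a 95% interval from -0.30 to 0.20. Abcb4, the phospholipid pump, had 10.63, 10.50 and 10.27 in NC and 10.83, 10.63 and 9.65 in NC+CCl4. NC+CCl4 replicate 3 was the low array, and the difference was -0.10 with an interval from -0.59 to 0.40. Abcc2, the pump for conjugated bilirubin, had 9.30, 9.13 and 9.12 in NC and 9.36, 8.98 and 8.98 in NC+CCl4, a difference of -0.08 with an interval from -0.39 to 0.24. For these 3 genes adjusted p was 0.78 to 0.823 (limma). The intervals of Abcb11 and Abcc2 left out a change of the size seen for Slc10a1, that of Abcb4 did not.

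The basolateral pumps differed from each other. Abcc4 had 4.06, 3.62 and 4.14 in NC and 6.37, 5.30 and 5.79 in NC+CCl4, with every CCl4 array above every oil array. Its log2 difference was 1.88 ± 0.32 (adjusted p = 0.00326, limma). Its probe set was dim, with a mean of 4.59 over all arrays where the median gene mean was 5.59, so the fold may be understated. Abcc3, which exports glucuronides, had 9.88, 9.85 and 9.71 in NC and 9.85, 9.05 and 9.11 in NC+CCl4. CCl4 replicate 1 lay at the oil level and both others below it, and the log2 difference of -0.48 ± 0.18 did not pass (adjusted p = 0.111, limma). Without NC+CCl4 replicate 1 it was -0.73 and passed (adjusted p = 0.00576), as it did with array weights (-0.60, adjusted p = 0.0247).

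**Figure D1:**
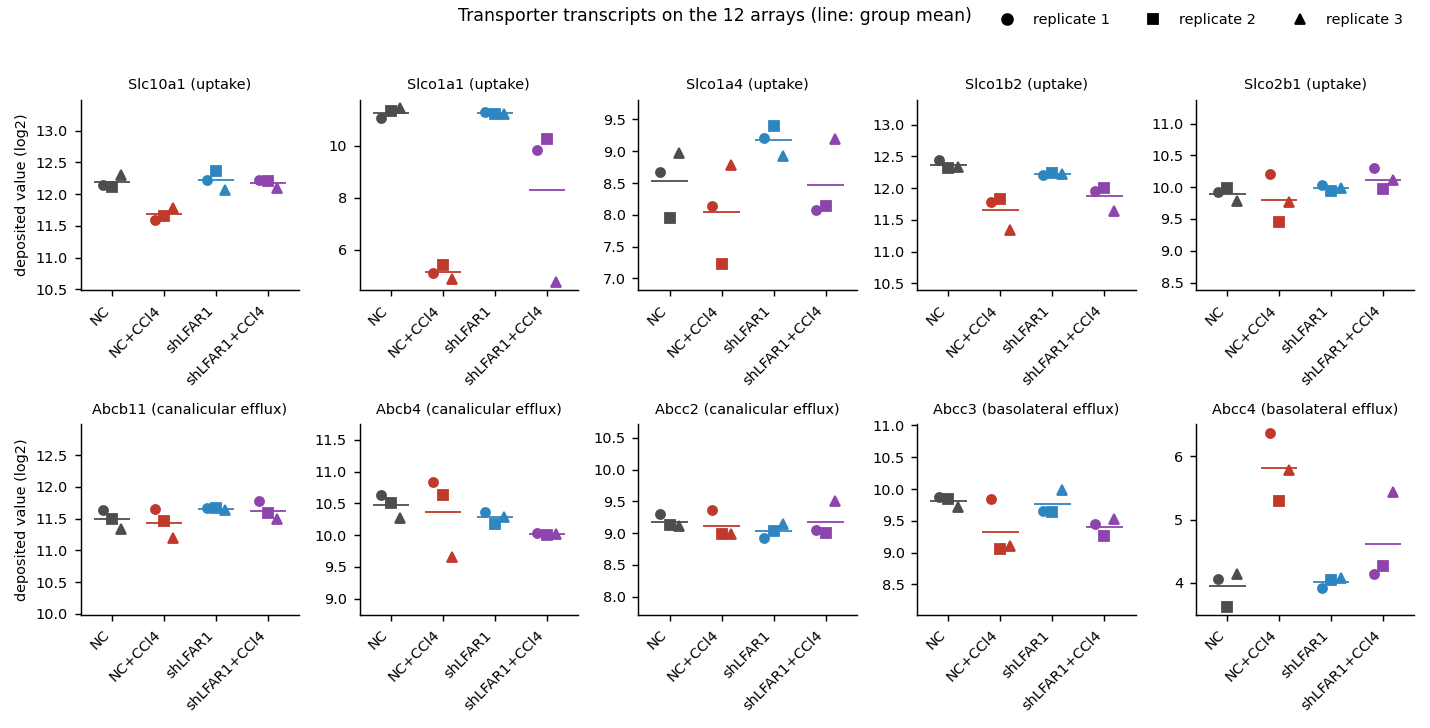
Deposited log2 value (vertical axis, own range in each panel) of each transporter on the 12 arrays, by group, with marker shape for the replicate number and a line at the group mean. Slco1a1 lies at 4.85 to 5.41 on the NC+CCl4 arrays and at 11.07 to 11.44 on the NC arrays, and shLFAR1+CCl4 replicate 3 lies at 4.76, apart from replicates 1 and 2 at 9.82 and 10.26.

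All 4 calls held relative to the hepatocyte markers and without the doubted NC+CCl4 array. Measured against the mean of the hepatocyte markers on the same array, the log2 differences were -6.05 for Slco1a1, -0.39 for Slc10a1, -0.59 for Slco1b2 and 2.00 for Abcc4, with adjusted p of 0.00105, 0.0319, 0.0251 and 0.000562 (limma). On that scale the small differences of Abcb11, Abcb4, Abcc2 and Slco2b1 changed sign, at 0.07, 0.02, 0.04 and 0.03. The marker mean is no plain measure of hepatocyte content, since the largest differences among the 16 markers were those of Pck1, which fell, and Apob (-1.55 and -0.53), while the median marker differed by -0.05. Without NC+CCl4 replicate 1 the differences were -6.15, -0.47, -0.77 and 1.61, all called. Of 8 stellate cell markers 6 rose, Col1a1 by 3.81, Col3a1 by 3.71 and Pdgfrb by 2.39 log2 units, and of 8 macrophage markers 5 rose, Lyz2 by 3.94, Cd68 by 2.94 and Csf1r by 1.92. Of 6 bile duct markers 1 was called, Prom1, which was 2.60 higher. Their mean was at 4.35 to 4.47 in NC and 4.88 to 5.24 in NC+CCl4, with Prom1 the largest part of this. Krt7, Krt19, Epcam and Sox9 differed by 0.26, 0.54, 0.22 and 0.49, and Cftr, which was dim, by -0.05, none called. The part of these cells in the rise of Abcc4 was not tested. None of 8 endothelial and 3 erythroid markers was called. Of the erythroid markers Hba-a1 was dim, Alas2 was 1.23 lower (adjusted p = 0.0628, limma) and Slc4a1 differed by 0.11. Among the hepatocyte markers Ahsg rose by 0.27.

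Uptake was set against efflux by averaging, on each array, the log2 value minus the NC mean over the members of a class, as a description with no test. Over the 5 uptake carriers the NC+CCl4 arrays lay at -1.49, -1.74 and -1.55, a mean of -1.59 ± 0.13 (SD, n = 3). Most of this came from Slco1a1, and without it the mean was -0.45 ± 0.22. The canalicular pumps were at 0.23, -0.02 and -0.44, on both sides of 0, with a mean of -0.08 ± 0.34. The basolateral pumps were at 1.23, 0.30 and 0.57, a mean of 0.70 ± 0.48, which holds the rise of Abcc4 and the lower values of Abcc3. The median log2 difference was -0.51 over the uptake carriers and -0.08 over the efflux pumps, beside -0.05 over all genes.

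In shLFAR1+CCl4 the uptake mean was -0.37, -0.34 and -1.29 on replicates 1, 2 and 3, a mean of -0.67 ± 0.54. Replicate 3 lay near the NC+CCl4 arrays and the other 2 between those and the oil arrays. Without Slco1a1 the 3 arrays lay close together at -0.10, -0.17 and 0.02. The canalicular mean was -0.09, -0.18 and -0.05, and the basolateral mean was -0.08 and -0.11 on replicates 1 and 2 and 0.61 on replicate 3. In shLFAR1 the class means were between 0.04 and 0.19 for the uptake carriers and between -0.09 and 0.16 for both classes of efflux pump.

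**Figure D2:**
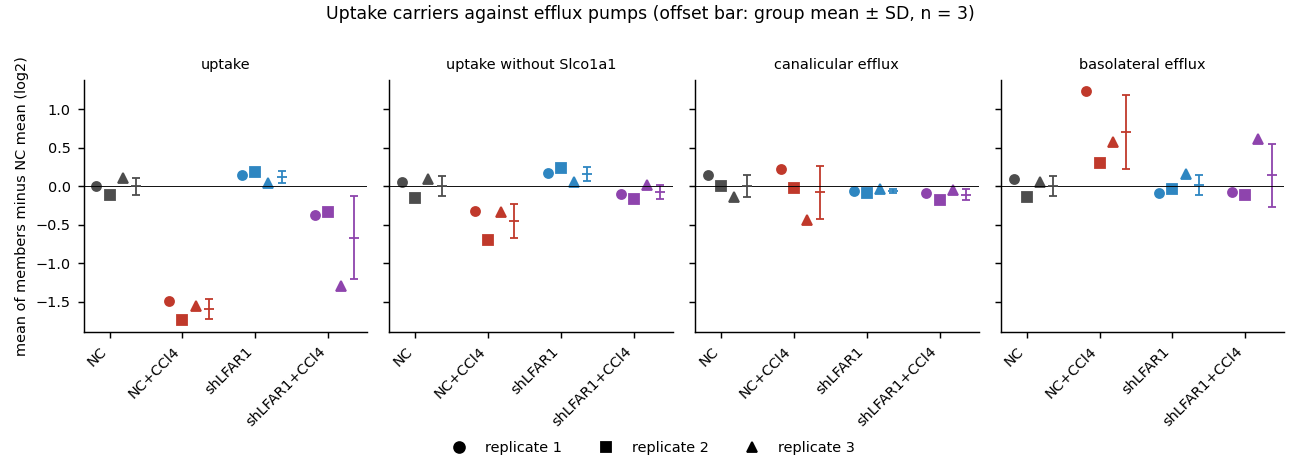
Mean over the members of a class of log2 value minus the NC mean (vertical axis, log2 units), for each array (points, shaped by replicate number) with the group mean and SD beside them (n = 3), for uptake, uptake without Slco1a1, canalicular and basolateral transporters. The NC+CCl4 arrays lie at -1.49 to -1.74 for uptake and on both sides of 0 for the canalicular pumps.

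The next comparison, shLFAR1+CCl4 against NC+CCl4, asked how the knockdown virus changed the transporters of the CCl4-treated liver. It shares the NC+CCl4 arrays with the first, so opposite values in both are in part built in, and the values of each are given on their own. Slc10a1 was 1.41-fold higher with the knockdown virus and was the 1 member called higher of 10. None was called lower. Over all genes 0.176% were called higher and 0.115% lower. Slc10a1 was also the 1 member whose arrays did not overlap in the higher direction, against 7.2% of all genes, and no member did so in the lower direction, against 5.11%. All 5 uptake carriers and 3 of the 5 efflux pumps had a log2 difference above 0, as 9624 of all 18193 genes did. The median was 0.42 over the uptake carriers, which is the value of Slco1a4, beside 0.08 for the efflux pumps and 0.01 for all genes.

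Slc10a1 gave 12.23, 12.20 and 12.10 in shLFAR1+CCl4, near its oil values and above the 11.60, 11.66 and 11.78 of NC+CCl4. The log2 difference was 0.50 ± 0.09 (n = 3 arrays per group, adjusted p = 0.0396, limma). Arrays of both CCl4 groups with the same replicate number, which the labels do not pair, differed by 0.64, 0.54 and 0.32. With the replicate number as a block over all 4 groups, the call was lost (adjusted p = 0.0625, limma). It was also lost after quantile normalization, without the intensity trend, with only both CCl4 groups in the fit and relative to the hepatocyte markers, where the difference was 0.39 (adjusted p = 0.0891). Leaving out 1 array ended the call in 8 of 12 cases, with log2 differences from 0.46 to 0.55. Adjusted p was 0.0703, 0.0697 and 0.0549 without NC replicates 1, 2 and 3, 0.0801 without shLFAR1 replicate 1, and 0.0936 and 0.0543 without NC+CCl4 replicates 1 and 3. It was 0.208 and 0.155 without shLFAR1+CCl4 replicates 1 and 2, and 0.00533 without replicate 3.

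For Slco1a1 the result rested on 1 array. In shLFAR1+CCl4 it stood at 9.82 and 10.26 on replicates 1 and 2 and at 4.76 on replicate 3, the last below all NC+CCl4 arrays. The log2 difference from NC+CCl4 was 3.17 ± 1.01 and did not pass (adjusted p = 0.175, limma). Without replicate 3 it was 4.92 ± 0.17 (adjusted p = 3.04e-08), whereas without replicate 1 or 2 it was 2.40 and 2.18 (adjusted p = 0.591 and 0.509). Pairs of the same replicate number differed by 4.73, 4.85 and -0.09.

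Abcc4 ran the other way on the same arrays. It stood at 4.14 and 4.27 on shLFAR1+CCl4 replicates 1 and 2, near the oil arrays, and at 5.43 on replicate 3, within the NC+CCl4 range. The log2 difference of -1.21 ± 0.32 did not pass (adjusted p = 0.111, limma). Pairs of the same replicate number differed by -2.23, -1.04 and -0.36. It passed without shLFAR1+CCl4 replicate 3 (-1.62, adjusted p = 0.00217), without NC+CCl4 replicate 2 (-1.47, adjusted p = 0.0367) and relative to the hepatocyte markers (-1.32, adjusted p = 0.0429). It was smaller, and not called, without NC+CCl4 replicate 1 (-0.93, adjusted p = 0.217) and without shLFAR1+CCl4 replicates 1 or 2 (-0.97 and -1.03, adjusted p = 0.462 and 0.357).

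The other uptake carriers overlapped between both CCl4 groups. The labels do not pair the arrays. Taken by replicate number, Slco1b2 differed by 0.18, 0.17 and 0.30, Slco2b1 by 0.10, 0.52 and 0.35, and Slco1a4 by -0.06, 0.90 and 0.42. With the replicate block none of them was called (adjusted p = 0.357, 0.298 and 0.602, limma). Slco1b2 was at 11.96, 12.00 and 11.64 in shLFAR1+CCl4, a log2 difference of 0.22 with a 95% interval from -0.05 to 0.48 (adjusted p = 0.478, limma). Slco1a4 was at 8.08, 8.14 and 9.20, a difference of 0.42 with an interval from -0.42 to 1.26. Its replicates 1 and 2 lay near the NC+CCl4 mean of 8.05 and replicate 3 above it, and the alternatives gave 0.01 to 0.79. Slco2b1 was at 10.30, 9.97 and 10.11, a difference of 0.32 with an interval from -0.02 to 0.66. It passed with NC+CCl4 replicate 1 and shLFAR1+CCl4 replicate 3 both left out (0.53, adjusted p = 0.0323, limma).

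Among the efflux pumps, Abcb11 was at 11.77, 11.59 and 11.49 and Abcc2 at 9.05, 9.00 and 9.50 in shLFAR1+CCl4. Their log2 differences from NC+CCl4 were 0.18 and 0.08, with 95% intervals from -0.07 to 0.43 and from -0.24 to 0.39. Pairs differed by 0.12, 0.14 and 0.30 for Abcb11, and its adjusted p with the replicate block was 0.34 (limma). Abcc3 was at 9.45, 9.26 and 9.53, a difference of 0.08 with an interval from -0.32 to 0.48. Abcb4 was at 10.04, 10.00 and 10.01, closer together than in any other group, and its difference was -0.35 ± 0.23 (adjusted p = 0.539, limma). It moved with which NC+CCl4 array was left out. Without replicate 1 it was -0.12 (adjusted p = 0.875), without replicate 2 it was -0.22 (adjusted p = 0.707), and without replicate 3, the low array, it was -0.71 and was called (adjusted p = 0.0427).

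Replicate 3 of shLFAR1+CCl4 differed from its group by transporter. Against the mean of replicates 1 and 2, Slco1a1 was 38.7-fold lower there, Abcc4 2.34-fold higher and Slco1a4 2.13-fold higher. On the log2 scale Abcc2 differed by 0.48 and Slco1b2 by -0.33. The other 5 members, Slc10a1 among them, differed by -0.19 to 0.18. The stellate and macrophage marker means of this array, 8.61 and 8.70, were those nearest to NC+CCl4 in its group. What set it apart was not tested.

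The CCl4 response under the knockdown virus, shLFAR1+CCl4 against shLFAR1, uses arrays that the first comparison does not. No member was called (limma), while over all genes 0.324% were called higher and 0.0824% lower. At an unadjusted p under 0.05 there were 2, Slco1a1 and Slco1b2, beside 1960 of all 18193 genes, and the methods' t-test after Benjamini-Hochberg adjustment called none. Slco1a1 was at 11.31, 11.24 and 11.24 in shLFAR1, and all shLFAR1+CCl4 arrays lay below, by -2.98 ± 1.01 on the log2 scale (adjusted p = 0.283). Without shLFAR1+CCl4 replicate 3 the difference was smaller, -1.22, and passed (adjusted p = 0.00643), and without replicate 1 or 2 it was -3.75 and -3.97 and did not (adjusted p = 0.195 and 0.113). Slco1b2 was at 12.20, 12.24 and 12.22 in shLFAR1 and lower on every CCl4 array, by -0.35 ± 0.12 (adjusted p = 0.298). Slc10a1 was at 12.22, 12.37 and 12.06, a difference of -0.04 with a 95% interval from -0.23 to 0.16.

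Of the other members, Abcb4 (10.37, 10.18 and 10.28 in shLFAR1) and Abcc3 (9.65, 9.64 and 9.98) also lay lower on every CCl4 array, by -0.26 and -0.34. Abcc4 (3.91, 4.04 and 4.08) lay higher on every CCl4 array, by 0.60 with an interval from -0.09 to 1.30. Most of this came from shLFAR1+CCl4 replicate 3, at 5.43, with replicates 1 and 2 at 4.14 and 4.27. The alternatives gave Abcc4 0.19 to 0.84. So 4 members did not overlap in the lower direction and 1 in the higher, against 11.7% and 8.41% of all genes. Slco1a4 (9.21, 9.39 and 8.93), Slco2b1 (10.03, 9.94 and 9.99), Abcb11 (11.66, 11.66 and 11.63) and Abcc2 (8.92, 9.04 and 9.15) overlapped with shLFAR1+CCl4, with differences of -0.71, 0.14, -0.04 and 0.15. For Slco1a4 the overlap rested on shLFAR1+CCl4 replicate 3, at 9.20. Replicates 1 and 2, at 8.08 and 8.14, lay below all shLFAR1 arrays, and the alternatives gave -1.07 to -0.51.

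**Figure D3:**
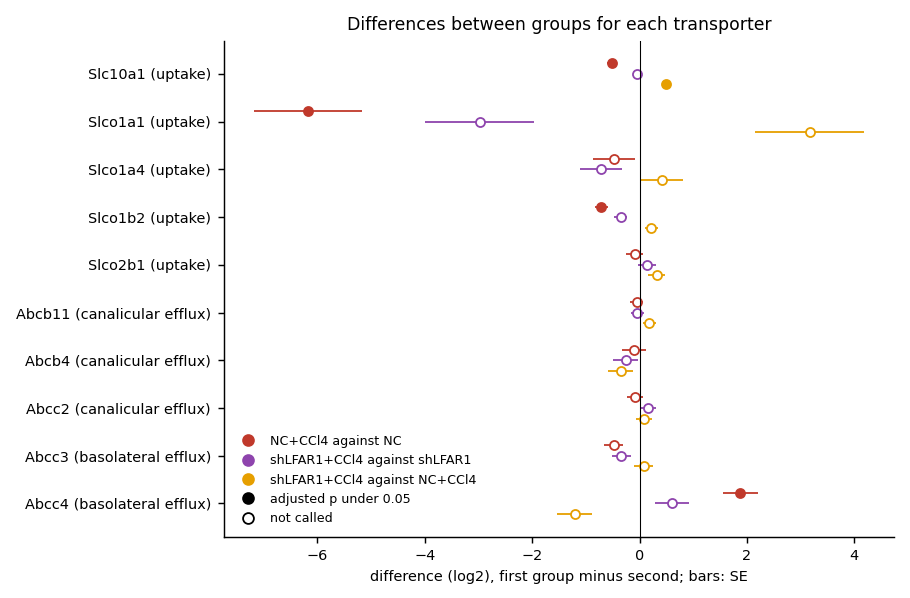
Log2 difference between groups (horizontal axis, first group minus second, bars SE, n = 3 arrays per group) for each transporter in the 3 comparisons that involve CCl4, filled where adjusted p was under 0.05. Under the control virus Slco1a1 lies at -6.17, and with the knockdown virus at -2.98 with a wide bar, while Slc10a1 lies at -0.51 and -0.04.

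Whether both CCl4 responses differed was tested by the interaction, the response under the knockdown virus minus that under the control virus. No member was called (limma), as 0.022% of all genes were, and 3 had an unadjusted p under 0.05, beside 1731 of all 18193 genes. These were Slc10a1 (0.47 ± 0.13, adjusted p = 0.306), Slco1a1 (3.18 ± 1.43, adjusted p = 0.509) and Abcc4 (-1.28 ± 0.45, adjusted p = 0.408). Without shLFAR1+CCl4 replicate 3, Slco1a1 and Abcc4 passed, at 4.94 (adjusted p = 6.04e-07) and -1.69 (adjusted p = 0.0185). Without replicate 1 or 2 of that group Slco1a1 was at 2.41 and 2.19 (adjusted p = 0.874 and 0.777) and Abcc4 at -1.04 and -1.10 (adjusted p = 0.793 and 0.691). Without NC+CCl4 replicate 1, Abcc4 was at -1.0 (adjusted p = 0.458). Slco1b2 had 0.36 ± 0.17 (adjusted p = 0.557), and the other 6 lay between -0.23 and 0.23.

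In the oil-treated liver the knockdown virus left no transporter called (shLFAR1 against NC, limma), and none had an unadjusted p under 0.05. Of all genes 0.0% were called, with 504 at an unadjusted p under 0.05, and the methods' t-test called no gene after Benjamini-Hochberg adjustment. The differences of the members lay between -0.19 (Abcb4) and 0.65 (Slco1a4). Slco1a1 differed by -0.02, which has a wide 95% interval, from -2.21 to 2.17, since the spread of all groups is pooled. Slc10a1 differed by 0.03, with an interval from -0.16 to 0.22. The arrays of Abcb11 lay higher in shLFAR1 without overlap and those of Slco1b2 lower, by 0.16 and -0.14, against 6.01% and 4.76% of all genes in these directions.

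The array holds 18 probe sets for the 10 members, and for the 4 members with several the second reading could be compared. They were tested one by one, a choice made after the values were seen. The second probe set of Slco1a1 fell by 5.93 under CCl4 (adjusted p = 0.00353, limma), with 10.59, 10.90 and 10.92 in NC and 5.17, 4.93 and 4.52 in NC+CCl4, and it too was low on shLFAR1+CCl4 replicate 3, at 4.33 against 9.20 and 9.79. That of Slc10a1 fell by 0.62 (adjusted p = 0.00258) and was 0.56 higher in shLFAR1+CCl4 than in NC+CCl4 (adjusted p = 0.0378). Slco1b2 has 5 probe sets, all with a difference below 0. The pair with the highest means passed, at -0.71 and -0.91. The next, at -1.73, did not (adjusted p = 0.0663), and NC+CCl4 replicate 1 was far lower there, at 6.54 against 9.14 and 9.36. The dimmest 2 gave -0.49 and -0.19. The 3 probe sets of Slco2b1 gave -0.09, -0.07 and -0.18, none called. Slco1a4, Abcb11, Abcb4, Abcc2, Abcc3 and Abcc4 rest on 1 probe set each.

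**Figure D4:**
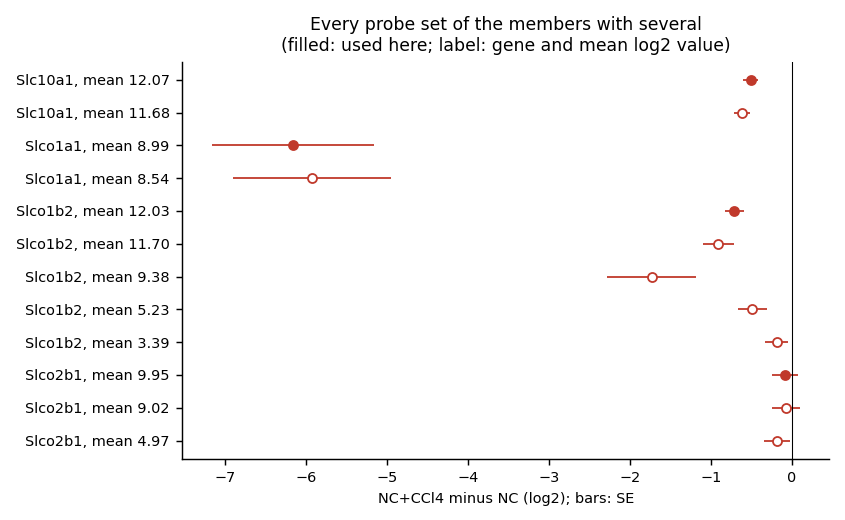
Log2 difference of NC+CCl4 from NC (horizontal axis, bars SE, n = 3 arrays per group) for every probe set of the 4 transporters that have several, labelled with the mean log2 value and filled for the one used. Both probe sets of Slco1a1 lie near -6 (-6.17 and -5.93), and the 5 of Slco1b2 spread from -1.73 to -0.19.

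Further hepatic transporters and enzymes of bile acid synthesis also changed in part. Of 23 measured further transporters 3 were called lower under CCl4 with the control virus and 1 higher. Over all genes 5.41% were called lower and 7.66% higher. The paired sterol exporters Abcg5 and Abcg8 fell by 1.08 ± 0.21 and by 1.30 ± 0.17 log2 units, and the prostaglandin carrier Slco2a1 fell by 0.78. Of 15 enzymes of bile acid synthesis 5 were called lower and 1 higher. Cyp7b1, an oxysterol hydroxylase of the alternative pathway, fell by 4.68 ± 0.79 (adjusted p = 0.00312, limma, with 12.43, 12.84 and 12.74 in NC, 8.37, 8.82 and 6.77 in NC+CCl4), and Cyp8b1, which sets the share of cholic acid, fell by 2.42. Cyp39a1, another oxysterol hydroxylase, rose by 2.64 ± 0.52. Cyp7a1, the first enzyme of the classical pathway, was 1.47 ± 0.68 higher and did not pass (adjusted p = 0.186, limma). The median was -0.18 over the further transporters and -0.25 over the enzymes, beside -0.05 over all genes.

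Of 22 measured regulators of these genes 6 were called lower under CCl4 and 2 higher. Klb, the coreceptor for the gut hormone that restrains bile acid synthesis, fell by 1.01, and Nr1i3 (CAR), a receptor for foreign compounds, fell by 0.97. Nfe2l2 (NRF2), which switches on antioxidant genes, rose by 1.13 ± 0.18. Nr1h4 (FXR), the bile acid receptor, differed by -0.16, its target Nr0b2 (SHP) by -0.87 and Hnf4a by -0.27, none called (adjusted p = 0.428, 0.241 and 0.201, limma). Of 13 measured antioxidant genes known as NRF2 targets none was called higher and 2 were called lower. These were Gclc, by 0.92, and Gclm, by 0.46, subunits of the enzyme for the first step of glutathione synthesis. Among those not called, Gstm3 and Srxn1 were 1.42 and 0.60 higher, while Me1 and Gsr differed by -0.52 and -0.47 (adjusted p from 0.0528 to 0.104, limma). Medians were -0.22 over the regulators and 0.00 over the NRF2 targets. In shLFAR1+CCl4 against NC+CCl4, of these 4 lists only Nfe2l2 was called, and it was lower by -1.13 ± 0.18 (adjusted p = 0.0206, limma), at 8.52, 8.43 and 9.23 against 9.85, 9.71 and 10.02. In shLFAR1+CCl4 against shLFAR1 only the estrogen receptor Esr1 was called, 0.80 higher (adjusted p = 0.00734). Esr1 was also called under the control virus, 0.76 ± 0.11 higher (adjusted p = 0.0018, limma). Its interaction was 0.04 (adjusted p = 0.962, limma).

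The genes with the most similar values over the 12 arrays were ranked by the root mean square difference of log2 values taken from each NC mean, among 9087 genes above the median level. Nearest to Slco1a1 came Cyp7b1 (0.925), Serpina4-ps1 (1.31) and the steroid dehydrogenase Hsd3b5 (1.39). All 3 were low on shLFAR1+CCl4 replicate 3, at -5.03, -5.69 and -8.38 from their NC means. They were not close copies, as Hsd3b5 lay at -4.17 and -2.31 on replicates 1 and 2, where Slco1a1 lay at -1.46 and -1.02. Nearest to Slc10a1 came Cops6 (0.0838), Osbpl1a (0.094) and Hsd11b1 (0.101), which lay at -0.64 to -0.24 from their NC means on the NC+CCl4 arrays, and to Slco1a4 came Sult1a1 (0.363), Trib3 (0.411) and Tmc7 (0.443). Nearest to Abcc4 came Cenpm (0.247), Reep5 (0.256) and the basement membrane collagen Col4a2 (0.257), at 1.66, 1.74 and 1.75 on shLFAR1+CCl4 replicate 3.

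Slco1a1, Slco1a4 and Slco1b2 lie in 1 cluster on chromosome 6, in the RefSeq order Slco1c1, Slco1b2, Gm5724, Slco1a4, Slco1a1, Gm6614, Slco1a6 and Slco1a5. These neighbours were looked at after the values were seen. Slco1c1, Slco1a6 and Slco1a5 had means of 2.88 to 2.96, and their differences under CCl4 with the control virus were 0.07, 0.05 and 0.09. On either side of the cluster Aebp2 and Pde3a differed by 0.33 and -0.09, and Iapp and Pyroxd1 by -0.26 and 0.02. None of these 7 genes was called (limma, adjusted p from 0.119 to 0.957), and Gm5724 and Gm6614 had no value. Of the 7, Slco1c1, Slco1a6, Slco1a5, Iapp and Pde3a had means under the 25th percentile of gene means (3.90), where a fall could not be seen.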

How the data were processed

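Liver RNA of 12 samples in 4 groups of 3 was hybridized to Affymetrix Mouse Genome 430 2.0 arrays, whose probe sets read transcripts near the 3′ end. The authors deposited log2 values that were already summarized and normalized. The method is not given in the sources used here, and no detection calls come with the values. The array means lay between 5.102 and 5.108, so a change in total RNA per cell cannot be read. The number of arrays limits the precision. Groups and replicate numbers came from the sample labels, which call the replicates biological.

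Of 45101 probe sets, 64 were controls, 34958 had 1 gene symbol in the platform annotation, 932 had several and 9211 had none. Each of 18193 genes was represented by its probe set with the highest mean. Group means were fitted with limma 3.58.1 in R 4.3.3 (lmFit, then eBayes with an intensity trend) to all 12 arrays, with 8 residual degrees of freedom. All tests were two-sided, with Benjamini-Hochberg adjustment of p over the genes and calls at an adjusted p under 0.05. Errors are standard errors of this model, and intervals are its 95% intervals. Class means, motif searches and figures were made in Python 3.11.15, with promoters from RefSeq, build GRCm38.p6. The fits were tested on simulated data.

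The members, the 10 other gene lists and the tests were chosen with earlier results of these data known. All members were named, and from each list up to 3 called genes with the largest change, together with bile acid genes that are given as values. Deviations from the group means of arrays with the same replicate number correlated at 0.126, 0.229 and 0.192 between both CCl4 groups, against -0.234 to 0.093 for other numbers. Deviations cancel within a group, so this contrast is in part built in. The labels do not pair the arrays, so differences by number between both CCl4 groups are descriptions, chosen from the data. Arrays of the same number correlated at 0.138, 0.084 and 0.047 between NC and shLFAR1+CCl4. Between NC and shLFAR1 they correlated at 0.041, -0.049 and -0.135, and between NC and NC+CCl4 at 0.15, -0.133 and 0.066. Between NC+CCl4 and shLFAR1 they gave 0.03, 0.02 and 0.025, and between shLFAR1 and shLFAR1+CCl4 0.087, -0.015 and 0.034. The replicate block applied the number to all 4 groups. For arrays the study gives a threshold of p under 0.05 and fold over 1.6 and names no test. Its general statistics name a two-sample t-test for 2 groups and a one-way analysis of variance for more. That t-test is here called the methods' t-test, and the analysis of variance was not run. Alternatives were a replicate block, eBayes without trend or robust, only the groups compared, the methods' t-test, quantile normalization, genes above the median level, other choices of probe set, array weights, values relative to hepatocyte markers, and leaving out each array. Leaving out both doubted arrays and testing each probe set by itself were added after the data were seen.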

Additional observations from a re-analysis of the deposited data

How the results depend on the processing

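Under the control virus, CCl4 changed 4 members, and the alternatives gave 3 to 5 except the methods' t-test after Benjamini-Hochberg adjustment, which called 1, Slco1a1 (280 of all genes against 2378, and 1262 at the study's threshold). Leaving out 1 array gave 4 to 5, with 1263 to 2923 of all genes. Slco1b2 was not called by its most variable probe set (-1.73, adjusted p = 0.0563). The count of 3 among genes above the median level left out Abcc4, which is dimmer and was not in that fit. The count of 3 at the study's threshold left out Slc10a1, whose 1.42-fold fall was under the fold of 1.6. For shLFAR1+CCl4 against NC+CCl4, with 1 member called, the count was 0 with the replicate block, with no intensity trend, with only the groups compared in the fit, by the methods' t-test after adjustment and at the study's threshold, and after quantile normalization. It was 3 with array weights and 4 with both doubted arrays (NC+CCl4 replicate 1, shLFAR1+CCl4 replicate 3) left out, a choice made after seeing the data, and leaving out 1 array gave 0 to 3, the 3 (Slc10a1, Slco1a1, Abcc4) without shLFAR1+CCl4 replicate 3. Over all genes this comparison called 53, against 0 with only the groups compared, 919 with array weights, 309 relative to hepatocyte markers, 0 and 176 by the t-test after adjustment and at the study's threshold, 1541 with both doubted arrays left out, and 4 to 1327 on leaving out 1 array, the highest without shLFAR1+CCl4 replicate 3. For shLFAR1+CCl4 against shLFAR1 the count of 0 became 1 (Slco1a1) with both doubted arrays left out, and 0 to 1 on leaving out 1 array. Over all genes 74 became 375 with array weights, 135 with both left out, 0 and 240 by the t-test after adjustment and at the study's threshold, and 23 to 110 on leaving out 1 array. For the interaction the count of 0 became 2 (Slco1a1, Abcc4) with array weights and with both left out, and 0 to 2 on leaving out 1 array, while 4 genes in all became 393, 776 and 0 to 583, and 7, 10, 2 and 7 after quantile normalization, with genes above the median level, with the mean of all probe sets and relative to hepatocyte markers. For shLFAR1 against NC no member was called under any of them, and of all genes 3 with only the groups compared and 31 by the t-test at the study's threshold. Beside that of Slc10a1 (adjusted p = 0.0625) the replicate block changed no member's call. The cause of these differences was not tested.

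Of 1175 member values under alternatives 1095 kept direction and side of the threshold, 18 lost a call, 21 gained one and 41 changed sign. None of the 41 was called either way, and the largest was 0.26. In NC+CCl4 against NC, quantile normalization gave Abcb11 0.01, and relative to hepatocyte markers Slco2b1, Abcb11, Abcb4 and Abcc2 were 0.03, 0.07, 0.02 and 0.04. Leaving out 1 array gave Slco2b1 -0.29 to 0.08, Abcb11 -0.16 to 0.07 and Abcb4 -0.33 to 0.26. In shLFAR1+CCl4 against NC+CCl4, Abcc2 and Abcc3 were both -0.03 relative to hepatocyte markers, and -0.08 to 0.20 and -0.06 to 0.33 on leaving out 1 array. In shLFAR1+CCl4 against shLFAR1, array weights and leaving out both doubted arrays each gave Slc10a1 0.00 and Abcb11 0.03, the latter also Abcc2 -0.01. Leaving out 1 array gave Slc10a1 -0.11 to 0.04, Abcb11 -0.11 to 0.03 and Abcc2 -0.01 to 0.24. In shLFAR1 against NC, Slco1a1 was 0.04 with array weights, and leaving out 1 array gave Slc10a1 -0.05 to 0.11, Slco1a1 -0.13 to 0.06, Abcc3 -0.17 to 0.01 and Abcc4 -0.09 to 0.17. In the interaction, Abcb11 was -0.02 after quantile normalization and -0.10 relative to hepatocyte markers, and Abcb4 was 0.03 with array weights and 0.07 with both left out. Leaving out 1 array gave Slco1a4 -0.63 to 0.14, Abcb11 -0.10 to 0.13, Abcb4 -0.52 to 0.07 and Abcc3 -0.01 to 0.39. Abcc4 and, under CCl4, Slco1a1 were dim, without detection calls, which limits their folds.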
